A study of Mus musculus with 6 samples.

Results

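Fructosamine 3 kinase (Fn3k) and fructosamine 3 kinase related protein (Fn3krp), the fructosamine kinase pair of the mouse, were followed over 6 arrays of LSK cells. Their probes were found by gene name among the spots that are not controls. These were 5 probes, 4 for Fn3k and 1 for Fn3krp, of 56605 on the array, and 2 genes of 37074 gene names. The pair was chosen because Fn3k was already known to differ between the groups of these arrays. Its difference is therefore given as a description and was not tested.

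The study compared bone marrow LSK cells (Lineage-, Sca1+, cKit+), a fraction that holds haematopoietic stem cells and early progenitors, with and without Atg5, a gene needed to form autophagosomes. Control mice (Atg5w/w;Vav) and Atg5f/f;Vav mice were both on the C57BL/6 background, both carried Vav-iCre, and were taken at P6 to P8. The Vav promoter drives Cre in haematopoietic cells as a whole, from before birth, so Atg5 loss is not limited to LSK cells or to the day of sampling. Each group had 3 samples on 1 array each; whether a sample was 1 mouse or several is not given in the labels, so n, SD and p refer to the spread between these samples.

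Glucose and other sugars attach to amino groups of proteins without an enzyme, and the first stable products are fructosamines. Fn3k phosphorylates the sugar of a fructosamine, which makes the adduct unstable so that the free amine is restored. Fn3krp acts on related adducts such as ribulosamines and not on fructosamines. FN3K activity is well known in erythrocytes, which live long in glucose-rich plasma, and human FN3K has been described as removing sugars from the transcription factor NRF2.

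The probe coordinates in the files are on mm9. All 5 probes lie on the plus strand of chromosome 11, the Fn3krp probe first and the Fn3k probes from 9.39 kb to its right, spread over 10.3 kb. Of the Fn3k probes, those at transcript bases 443 and 929 are annotated to transcript variant 1 (NM_022014). Those at bases 3160 and 3795 are annotated to transcript variant 2 (NM_001038699). The probes are called variant 1 and variant 2 by this annotation alone. The base 443, 3160 and 3795 probes have the same spacing by transcript base as by coordinate, so the base 443 probe may also match variant 2. Whether any probe reads only 1 variant was not checked. The Fn3krp probe starts at base 1959 of NM_181420. Exon boundaries were not used here, so positions are given by transcript base. The sequences below show how the probes read. The signal differences given later do not use them. Both variant 1 probes are whole, and 30 bases are given of the base 3795 probe and of the Fn3krp probe. Capitals mark AATAAA, the common signal for cleavage and polyadenylation near the end of an mRNA.
Fn3k base 443, chr11:121301407-121301466: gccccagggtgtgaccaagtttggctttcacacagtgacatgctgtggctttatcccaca
Fn3k base 929, chr11:121311728-121311787: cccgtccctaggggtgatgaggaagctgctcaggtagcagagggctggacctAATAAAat
Fn3k base 3795, chr11:121304787-121304816: tgacagatgctcAATAAAtgcacatttgct
Fn3krp base 1959, chr11:121292014-121292043: gaataatgaccaattctaaaatcaataacg

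The motif stood in the base 929 and base 3795 probes of Fn3k and in none of the other members' probes. Of all 56605 probes, 9.77% hold AATAAA as written and 3.85% hold its reverse complement TTTATT. The GC content was 53.3% and 55.0% for the variant 1 probes at bases 443 and 929, 38.3% and 36.7% for the variant 2 probes at bases 3160 and 3795, and 35.0% for the Fn3krp probe.

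Signals are given below as log2 intensity relative to the array's own 75th percentile, so that 0 is the brightness below which 75% of the spots on that array lie. Between 51.6% and 58.2% of probes were well above background on an array, with the 3 Atg5f/f;Vav arrays below the 3 controls. All 7 genes of the LSK gate list were well above background on all 6 arrays, including Kit and Ly6a (Sca-1). Atg5, the gene to be deleted, went against the label at its only probe. Controls read 1.10, 0.93 and 1.06 and arrays labelled Atg5f/f;Vav 1.46, 1.51 and 1.74 in log2 signal, a difference of 0.54 (limma, adjusted p = 0.0209). Without control replicate 1 or 2 it did not pass (adjusted p = 0.0727 and 0.0836). The probe starts at base 2251 of its transcript. Where this probe sits relative to the floxed sequence is unknown here, so it does not check the genotype.

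Fn3k was lower on the arrays labelled Atg5f/f;Vav, by 6.60-fold at the only one of its probes that was well above background on all 6 arrays. That probe, A_51_P398525 at base 929, had intensities of 500.2, 428.9 and 405.2 on control arrays 1, 2 and 3. On Atg5f/f;Vav arrays 1, 2 and 3 they were 100.1, 82.7 and 43.6. The scanner software's own error on these spots was between 40.9 and 50.3 on the 3 controls and between 8.26 and 12.4 on the others. The groups did not overlap: the lowest control array, replicate 3, lay above the highest Atg5f/f;Vav array, replicate 1 by intensity and replicate 2 after scaling. In log2 signal the control arrays read -0.39, -0.60 and -0.88 and the Atg5f/f;Vav arrays -3.14, -3.08 and -3.83, which gives means of -0.63 ± 0.24 and -3.35 ± 0.42 (SD, n = 3). The difference was -2.72 (SE 0.28), and the gap between the groups was 2.20. Within a group the arrays spanned 1.40-fold in the controls and 1.68-fold in Atg5f/f;Vav. With normexp background correction in place of the scanner software's the difference was -1.89. With each array left out in turn it lay between -2.86 and -2.48.

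The base 443 probe of variant 1 (A_55_P2005859) gave the same direction from about 10.3 kb upstream. Its intensities were 83.4, 75.4 and 39.2 on the 3 controls and 15.9, 6.93 and 6.85 on the Atg5f/f;Vav arrays. All 3 control arrays were well above background and none of the Atg5f/f;Vav arrays was, so only an approximate bound can be given. The control mean lay 2.23-fold above the mean of the lowest signals well above background on the Atg5f/f;Vav arrays. A spot can read slightly above that lowest signal without being well above background. The measured means were -3.45 ± 0.70 and -6.32 ± 0.46 (SD, n = 3), a difference of -2.87 that rests on replacement values set by the scanner software on Atg5f/f;Vav arrays 2 and 3. With normexp background correction it was -0.76. Control replicate 3 was again the lowest control array, at -4.25 against -2.98 and -3.11.

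The variant 2 probes were dim in both groups. At base 3795 (A_55_P2040090) the intensities were 34.2, 24.6 and 33.3 on the control arrays, of which replicates 1 and 3 were well above background. On the Atg5f/f;Vav arrays they were 6.52, 6.07 and 6.03, all replacement values not well above background. The measured difference was -2.38, and the same approximate bound was 1.08-fold. Its control mean includes replicate 2, which was not well above background. At base 3160 (A_52_P268764) the control arrays read 21.1, 22.2 and 14.4 and the Atg5f/f;Vav arrays 7.28, 6.67 and 6.64, and none of the 6 was well above background. No fold is given for it. Its measured difference was -1.55. With normexp background correction these differences were -0.67 at base 3795 and -0.40 at base 3160.

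Both Fn3k probes that met the detection filter, which asked for 3 or more arrays well above background, had groups that did not overlap, with Atg5f/f;Vav lower. Of all 32074 probes that met it, 28.3% did so in that direction and 55.4% in either. The remaining Fn3k probes, at bases 3160 and 3795, also had Atg5f/f;Vav lower without overlap but did not meet the filter. Since the gene was chosen for this contrast, nothing is read from the count. Bulk RNA of sorted cells cannot tell fewer Fn3k-expressing cells from less Fn3k RNA per cell.

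**Figure D1:**
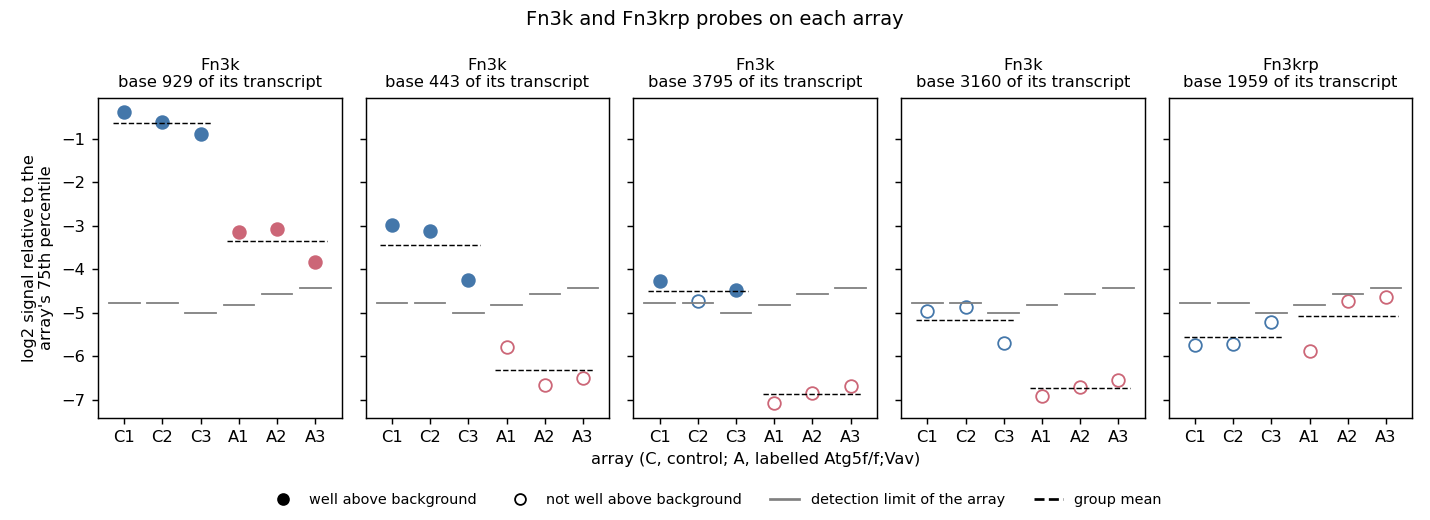
Log2 signal of each probe of Fn3k and Fn3krp relative to the array's 75th percentile (y axis) on control arrays C1 to C3 and arrays labelled Atg5f/f;Vav, A1 to A3 (x axis). Filled points are well above background, open points are not, dashes are group means and grey lines the lowest signal well above background on each array; only the base 929 probe of Fn3k is filled on all 6 arrays, with controls from -0.88 to -0.39 and Atg5f/f;Vav from -3.83 to -3.08.

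Fn3krp, the neighbour that acts on ribulosamines, was not well above background on any array. Its probe (A_51_P418147) had intensities of 12.3, 12.3 and 20.3 on the 3 controls and 14.9, 26.4 and 25.0 on the Atg5f/f;Vav arrays, each with a scanner error between 5.25 and 6.90. The groups overlapped, since Atg5f/f;Vav replicate 1 lay below control replicate 3, and after scaling below all 3 controls. The measured difference was 0.48 (SE 0.44) on the log2 scale, and no fold is given because neither group was well above background. The scanner software did call the spot positive and significant against its background on all 6 arrays. The plot of the members by array shows it beneath the detection limit of every array. A change of Fn3krp was not detectable at this brightness, and this does not show that it was absent.

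The tested genes around the pair differed between the groups by -0.43 to 0.68 at their brightest probes. Of the 10 other genes with a probe within 250 kb, 8 were tested, 2 were higher and 1 was lower, against 18.7% higher and 15.3% lower, 34.1% in all, of the 20778 genes tested. Their median difference was 0.15, against -0.03 over all genes. Foxk2, a forkhead transcription factor, was 0.68 higher (SE 0.13, adjusted p = 0.0168). Tbcd, a tubulin folding cofactor and the next gene after Fn3k, was 0.59 higher (SE 0.15, adjusted p = 0.0259) at its brightest probe and 0.13 higher at another (adjusted p = 0.481). B3gntl1, a glycosyltransferase-like gene, was 0.43 lower, with a difference of -0.43 (SE 0.13, adjusted p = 0.0448), and -0.52 at another probe. The genes that did not pass were BC017643 (0.18), Hexdc (0.13), Narf (0.44), Rab40b (-0.17) and Wdr45b (0.03, with -0.11 at another probe). Of these, the sign for BC017643, Hexdc, Rab40b and Wdr45b changed with the scaling. D11Ertd712e and Zfp750 were not well above background on any array. Without control replicate 1 or without control replicate 2, no gene near the pair passed (3 and 2 at an unadjusted p under 0.05), and over all probes the calls dropped from 11024, 34.4% of those tested, to 330 and 251.

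**Figure D2:**
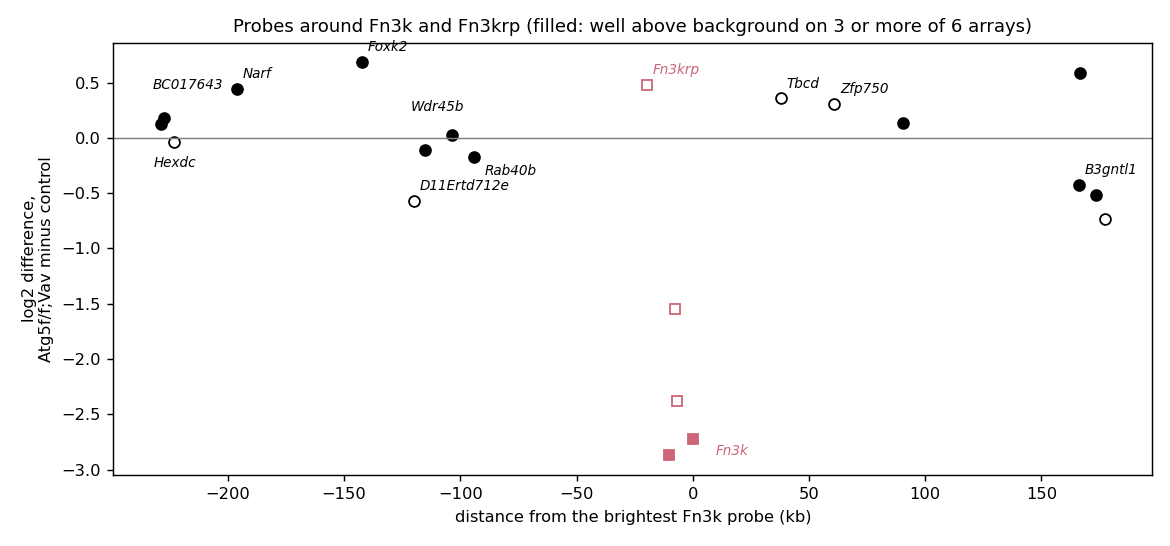
Difference in log2 signal, Atg5f/f;Vav minus control (y axis), for every probe within 250 kb of the pair, by distance from the base 929 probe of Fn3k in kb (x axis); each gene is named at its first probe, and the unnamed points right of Zfp750 are probes of Tbcd (above 0) and B3gntl1 (below 0). Squares are Fn3k and Fn3krp, filled points were well above background on at least 3 arrays; the Fn3k probes lie between -2.87 and -1.55 and the other probes between -0.73 and 0.68.

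Other genes that deal with sugar adducts, their precursors or their end products were higher or did not pass the test. Of 24 such genes listed, 23 were on the array and 20 were tested; 9 were higher in Atg5f/f;Vav, none was lower and 11 did not pass, beside 18.7% of all genes higher and 15.3% lower. Their median difference was 0.36, against -0.03 over all genes. Without control replicate 1 or 2 none of the 20 passed (11 and 9 at an unadjusted p under 0.05), and with quantile normalisation 3 did.

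The phosphatases listed for adducts that carry a sugar phosphate did not pass. Mdp1, described as a fructosamine-6-phosphatase, differed by 0.25 (SE 0.14, adjusted p = 0.185), and Acp1, a low molecular weight phosphatase active on ribulosamine phosphates, by 0.41 (SE 0.14, adjusted p = 0.0567).

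Of the enzymes that remove reactive dicarbonyls, the glycating by-products of sugar metabolism, 5 of 12 tested were higher and none was lower. Glo1, which starts the glyoxalase route for methylglyoxal, read 2.26, 2.64 and 2.51 on the 3 controls and 3.24, 3.79 and 3.96 on the Atg5f/f;Vav arrays. The groups did not overlap, and the difference was 1.19 (SE 0.21, adjusted p = 0.0154). It was 1.09 without control replicate 1 (adjusted p = 0.0665) and 1.28 without control replicate 2 (adjusted p = 0.0687). The others that rose were Park7 (DJ-1, a protein with deglycase activity described for it, 0.55), Aldh9a1 (an aldehyde dehydrogenase, 0.52), Akr1a1 (aldehyde reductase, 0.47) and Glod4 (a glyoxalase-domain protein, 0.37), with adjusted p between 0.0180 and 0.0339. Of these, only Glo1 passed with quantile normalisation. Hagh, the glyoxalase that completes the route, differed by 0.17 and its relative Haghl by -0.27, and neither passed. Nor did the reductases Akr1b3 (aldose reductase, 0.34), Akr1b8 (0.11) and Dcxr (0.32), or the dehydrogenase Aldh2 (-0.12). Akr1b10 differed by 0.04 at its brightest probe and by -0.24 as the mean of its tested probes. Akr1b7 was not well above background on any array.

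Of the binders of advanced glycation end products, 3 of 4 tested were higher: Ddost (part of the oligosaccharyltransferase, 0.59), Lgals3 (galectin-3, 0.47) and Prkcsh (glucosidase II beta subunit, 0.43), with adjusted p of 0.0257, 0.0254 and 0.0373. Besides binding end products, Ddost and Prkcsh are known for their part in N-glycosylation in the endoplasmic reticulum. Ager, the receptor RAGE, differed by 0.10 (adjusted p = 0.436) and by -0.27 as the mean of its tested probes. The scavenger receptors Msr1 and Cd36 did not meet the detection filter; Cd36 was well above background on 2 control arrays. In the polyol route, which makes fructose and then fructose 1-phosphate, Khk (ketohexokinase) rose by 0.90 (SE 0.18, adjusted p = 0.0168), and Sord (sorbitol dehydrogenase) differed by 0.20 and did not pass. The signs for Akr1b8, Akr1b10, Ager and Sord changed with the scaling.

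**Figure D3:**
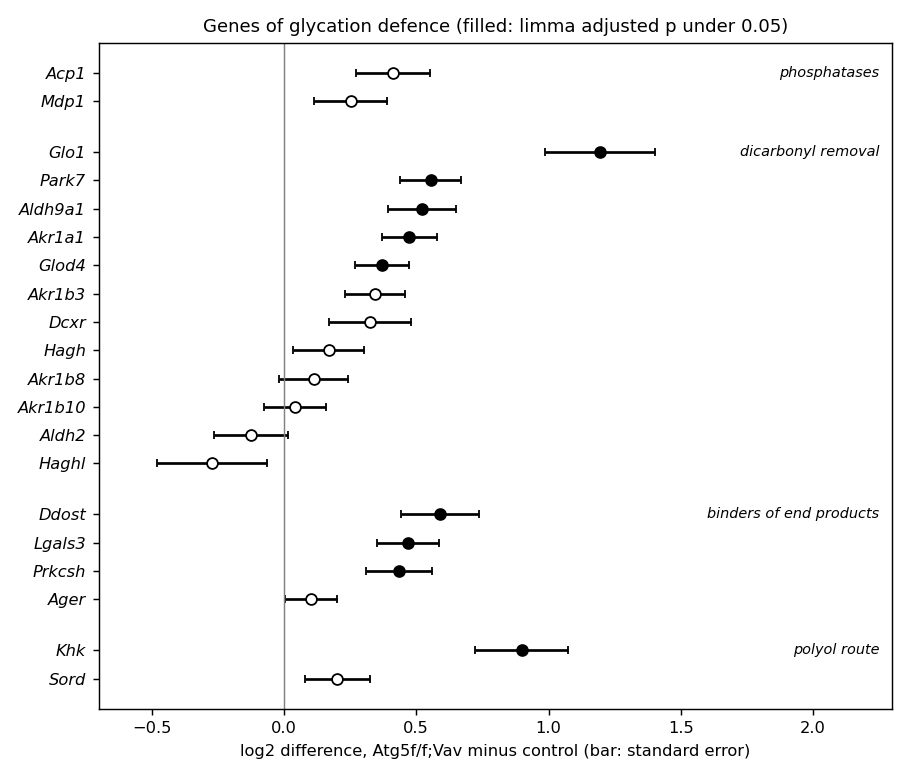
Difference in log2 signal, Atg5f/f;Vav minus control (x axis), of the 20 tested genes of the glycation list, grouped by role. The plot's title calls them genes of glycation defence, but the list also holds receptors of end products and the polyol route. Points are means over 3 arrays against 3 and bars are standard errors. The 9 filled points passed limma's adjusted p of 0.05 and all lie right of 0, from 0.37 for Glod4 to 1.19 for Glo1.

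Of all genes tested, 34.1% were called, 18.7% higher and 15.3% lower. Among 19 tested kinases of sugars or their derivatives, 6 were higher and 1 was lower. Their median difference was 0.15, against -0.03 over all genes. Rbks (ribokinase) was 0.94 higher (adjusted p = 0.0147), Khk 0.90, and Galk1 (galactokinase) 0.72 (adjusted p = 0.0159). Without control replicate 1 or 2 none of these kinases passed, with 7 at an unadjusted p under 0.05 in both cases.

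Of the sugar transporters of the Slc2a family, which set how much glucose and fructose enters the cell, 9 of 11 were tested, 1 was higher and 2 were lower, again beside 34.1% of all genes called in either direction. Their median difference was -0.20, against -0.03 over all genes. Slc2a6 was 1.73 higher (adjusted p = 0.0154), Slc2a4, the insulin-responsive transporter, differed by -1.78 (adjusted p = 0.0206) with 2 of 3 Atg5f/f;Vav arrays well above background, and Slc2a13, a myo-inositol transporter, by -0.88 (adjusted p = 0.0247). Slc2a1, a glucose transporter, differed by -0.20 (adjusted p = 0.498), and is named although the rule for naming genes did not pick it. Without control replicate 1 or 2 none passed, with 3 at an unadjusted p under 0.05 in both cases.

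In the Nrf2 system, the stress response whose factor FN3K is described as acting on, 8 of 14 tested genes were higher and none was lower, beside 18.7% and 15.3% of all genes. Their median difference was 0.52, against -0.03 over all genes. Nqo1, a quinone reductase and a standard Nrf2 target, rose by 3.32 (SE 0.45, adjusted p = 0.0121). Gclm, the modifier subunit of glutathione synthesis, rose by 1.61, and Srxn1 (sulfiredoxin) by 1.36. Nfe2l2, which encodes Nrf2 itself, is named here after its value was seen: it differed by 0.39 and did not pass (adjusted p = 0.0739). On the 3 arrays where Fn3k was low the summed linear signal of the 15 Nrf2 genes lay between 121 and 185. On the control arrays it lay between 79.7 and 89.4, in units of the array's 75th percentile. Taldo1, the brightest gene of the list, weighs most in this sum. The part of the Nrf2 system in the Fn3k values was not tested. Without control replicate 1 or 2 none passed, with 9 and 8 at an unadjusted p under 0.05, and without control replicate 3, or without Atg5f/f;Vav replicate 2, 5 did.

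Since FN3K is known from erythrocytes, erythroid genes are given beside it. Of 17 on the array, 16 were tested, 6 were higher and 5 lower in Atg5f/f;Vav, beside 18.7% higher and 15.3% lower of all genes. Their median difference was 0.32. Genes of mature red cells were among the lower ones: Hba-a1 (alpha globin, which shares its sequence with a near-identical copy) read 8.90, 8.84 and 7.72 on the 3 controls and 6.00, 6.42 and 6.28 on the Atg5f/f;Vav arrays. Its difference was -2.26 (adjusted p = 0.0136), that of Slc4a1 (band 3, the anion exchanger) -2.29 (adjusted p = 0.0149) and that of Alas2 (the erythroid enzyme that starts haem synthesis) -2.07 (adjusted p = 0.0168). Genes of earlier erythroid cells were higher, by 3.80 for Car1 (carbonic anhydrase, adjusted p = 0.0138), 3.0 for Gata1 (adjusted p = 0.0121) and 2.95 for Klf1 (adjusted p = 0.0159), both transcription factors. Without control replicate 1 or 2 none of these 6 genes passed; Gata1 had an adjusted p of 0.0513 and 0.0610.

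Control replicate 3, the lowest control array for Fn3k at both variant 1 probes, was also the lowest for Hba-a1, Alas2 and Slc4a1, as the plot of Fn3k beside erythroid genes shows. The order differed in Atg5f/f;Vav, where replicate 3 was lowest for Fn3k at the base 929 probe and for Slc4a1, where the 3 arrays lay within -0.05 to 0.03, and replicate 1 for Hba-a1 and Alas2. The summed signal of all 17 erythroid genes ranged from 263 to 588 on the 3 controls and from 119 to 216 on the Atg5f/f;Vav arrays. In this sum of linear signals Hba-a1, the brightest gene of the list on every array, weighs most, so the sum does not stand for the whole list. Each gene of the list was well above background on at least 1 array. The part of the erythroid genes in the Fn3k values was not tested.

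**Figure D4:**
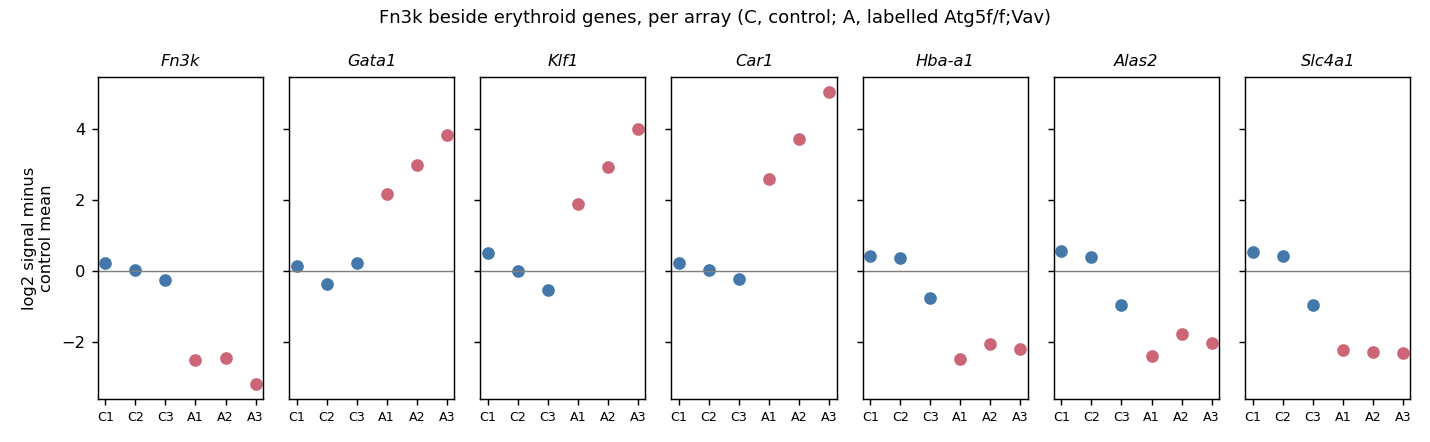
Log2 signal minus the control mean (y axis) of Fn3k (base 929 probe) and 6 erythroid genes on control arrays C1 to C3 and arrays labelled Atg5f/f;Vav, A1 to A3 (x axis); each point is 1 array. Fn3k, Hba-a1, Alas2 and Slc4a1 lie lower on all 3 Atg5f/f;Vav arrays than on any control, and Gata1, Klf1 and Car1 higher.

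Markers of other cells also moved with the groups, beside 15.3% lower and 18.7% higher of all genes. Of 12 stem cell genes, 6 were lower and none higher, and Mecom differed by -1.75, Hlf by -1.65 and Procr by -1.56. Mecom, a transcription factor of stem cells, read -0.63, -0.86 and -1.14 on the 3 controls and -2.29, -2.15 and -3.43 on the Atg5f/f;Vav arrays. Hlf, another, read 3.74, 3.71 and 3.46 and then 2.36, 2.42 and 1.17. Both had the arrays in the same order as the base 929 probe of Fn3k within each group. Procr did not, since its Atg5f/f;Vav arrays 1, 2 and 3 read 1.49, 1.27 and -0.12. The other genes of the list did not all share this order either. The summed signal of the stem cell list was 58.2, 56.2 and 54.7 on control arrays 1, 2 and 3 and 34.0, 32.6 and 15.7 on Atg5f/f;Vav arrays 1, 2 and 3. Of 8 neutrophil genes, 6 were lower, among them S100a8 (-1.38), and Ly6g alone was higher (0.71), with sums of 77.6 to 162 and 37.5 to 67.0. Of 11 tested stromal genes, 5 were lower, and the sums of all 14 were 10.99, 41.7 and 31.5 on control arrays 1, 2 and 3 and 7.28 to 10.05 in Atg5f/f;Vav. Col3a1 and Pdgfra, both stromal, were not well above background on any array. Of macrophage genes 0 of 4 tested were called, of T cell genes 0 of 3, of B cell genes 1 of 6 and of megakaryocyte genes 4 of 6, of which 2 were higher. Mecom, Hlf and Ly6g did not pass without control replicate 1 or 2, nor did Procr and S100a8 without any 1 of the 3 controls. Of the gate genes, Ly6a was 1.57 higher (limma, adjusted p = 0.00623, and 0.0359 and 0.0405 without control replicate 1 or 2). Ptprc differed by -0.34 (adjusted p = 0.04997). With control replicate 1, 2 or 3 left out Ptprc did not pass (adjusted p = 0.165, 0.161 and 0.0506). The other 5 gate genes did not pass on all 6 arrays. The part of any of these in the Fn3k values was not tested. The control arrays lay in slide row 1 and the Atg5f/f;Vav arrays in row 2 of the same slide, so row and genotype cannot be told apart.

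The genes whose signals ran most like that of Fn3k over the 6 arrays, by Pearson's r against the base 929 probe among 18381 genes well above background on all arrays, had r of at least 0.998. They were Gm20300, A130071D04Rik, AA415398, a transcript known by its Ensembl name alone and a locus on chromosome 8 named by its position alone. Gm20300 read 0.27, 0.20 and 0.15 on the 3 controls and -0.41, -0.38 and -0.60 on the Atg5f/f;Vav arrays, which repeats the order of Fn3k with a smaller difference of -0.67. Such likeness was common: 746 of the 18381 genes, 4.06%, had r of at least 0.95, and over 2 groups of 3 arrays r mostly follows the group difference. Of these, 188 also had r of at least 0.9 for the deviations from the group means, and Gm20300 had 0.993. With quantile normalisation 3 of the 5 nearest genes were the same, and with normexp 0 were. No likeness is given for Fn3krp, whose signal was not well above background.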

How the data were processed

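RNA of 3 control and 3 Atg5f/f;Vav LSK samples was hybridised to 1-colour Agilent arrays. The authors deposited 1 intensity per spot, corrected for background by Agilent Feature Extraction 12.0.3.1 (per the labels), with flags and, for weak spots, replacement values. They also deposited a table of linear normalised signal, which was checked to equal that intensity divided by 1 constant per array. Groups follow the labels.

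Log2 intensity minus the array's 75th percentile over 59305 non-control spots was used. Spots flagged as outliers, 64 to 81 on an array, were dropped, and there was no saturation. Testing took the probes with 3 or more of 6 arrays well above background, by lmFit and eBayes of limma 3.58.1 (R 4.3.3, 2-sided), with Benjamini-Hochberg adjustment over 32074 probes at 0.05. A gene was represented by its probe with the highest mean signal. Bounds set the mean of the brighter group against the higher, per array, of the dim probe's signal and the lowest signal well above background. The 75th percentile of intensity was 620.3 to 881.4; arrays hold no read depth, and their number limits the precision.

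The members, the lists and the rule for named genes were chosen with earlier results of these data known. Named were all probes of the pair, Atg5, all measured genes of the glycation list and within 250 kb, at most 3 higher and 3 lower genes of each other list, and the 5 genes most like Fn3k. One gene that the rule picked among the sugar kinases is not reported here. The lists were glycation, sugar kinases, hexose transporters, the Nrf2 system, LSK gate, stem cell, erythroid, stromal, neutrophil, macrophage, B cell, T cell and megakaryocyte genes. Alternatives were quantile normalisation, normexp (offset 50), scaling on the 75th percentile of the probes detected throughout, the deposited signal, flagged spots kept, other detection filters, an intensity trend, the methods' t-test, a replicate block, the mean of a gene's probes and each array left out. The steps were tested on simulated data. All arrays shared 1 slide and 1 scan.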

Additional observations from a re-analysis of the deposited data

How the results depend on the processing

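The difference of Fn3k stayed below 0 at all 4 probes under the alternatives run for single probes (quantile normalisation, normexp, the other scaling, the deposited signal, flagged spots kept, the replicate block and each array left out). Several of these could not have changed the direction, so nothing is read from it. No Fn3k spot was flagged, and a block in a balanced design leaves the difference as it is. Groups that do not overlap keep their order when an array is left out. Normexp background correction moved it most, to -1.89 at base 929, -0.76 at base 443, -0.67 at base 3795 and -0.40 at base 3160; the cause was not tested. With each array left out it lay between -2.86 and -2.48, -3.27 and -2.64, -2.49 and -2.26, and -1.81 and -1.39 at these probes, and for Fn3krp between 0.25 and 0.88. The replicate block left every difference as it was (-2.72 at base 929). Replicate numbers showed no clear pairing of the samples (r of deviations between same-numbered arrays -0.0654, 0.189 and 0.111), which so few arrays cannot exclude. The block gave 10173 called probes, 8 glycation genes, 9 sugar kinases, 3 transporters, 7 Nrf2 genes and 2 genes near the pair.

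Left-out arrays gave 251 to 10304 called probes, 0 to 8 glycation genes, 0 to 7 sugar kinases, 0 to 3 transporters, 0 to 8 Nrf2 genes and 0 to 3 genes near the pair. Without a filter on dim probes 4538 probes, 3 glycation genes, 4 sugar kinases, 1 transporter, 3 Nrf2 genes and 1 near gene were called. The methods' t-test called 0 of each after Benjamini-Hochberg adjustment, and 13541, 12, 9, 3, 8 and 3 at an unadjusted p under 0.05. Quantile normalisation called 3 glycation and 5 Nrf2 genes, and 3 of the 5 genes most like Fn3k were shared (normexp 0). Scaling on the 75th percentile of the probes detected throughout moved the median of all genes from -0.03 to -0.19 and the split of called probes from 5540 higher and 5484 lower to 3889 and 8744.

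Small differences changed sign: with quantile normalisation Akr1b10 (-0.15), Ager (-0.073), Sord (-0.040), BC017643 (-0.012) and Rab40b (0.15); with the other 75th percentile Akr1b8 (-0.045), Akr1b10 (-0.12), Ager (-0.055), Hexdc (-0.031) and Wdr45b (-0.13); with the mean of a gene's probes Akr1b10 (-0.24), Ager (-0.27) and Wdr45b (-0.041). With each array left out Akr1b10 ranged from -0.020 (without control replicate 1) to 0.12, Rab40b from -0.34 to 0.080 (without Atg5f/f;Vav replicate 2) and Wdr45b from -0.089 (without Atg5f/f;Vav replicate 2) to 0.17. The detection limit bounds what can be said of Fn3krp and of the Fn3k probes annotated to variant 2.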
